A study of Mus musculus with 6 samples.

Results

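The genes described here are 9 regulators of Polycomb silencing and DNA methylation, measured in regulatory T cells (Tregs) sorted from mouse breast tumors. They were picked from the gene table by symbol and are 9 of its 23420 genes. The rule itself uses no measured value, but the genes and the lists below were chosen with earlier results of these data known. Ezh2, Ezh1, Eed and Suz12 belong to Polycomb repressive complex 2 (PRC2). The others are the DNA methyltransferases Dnmt1 and Dnmt3a, the methyltransferase partner Uhrf1, and the methylcytosine oxidases Tet2 and Tet3. The tumors grew from T11, a line that models the claudin-low form of triple-negative breast cancer, after injection into BALB/c mice of a Foxp3-GFP strain, in which GFP marks the cells that express the Treg factor FoxP3. Each mouse was injected with 10000 T11 cells, and tumors were collected at 150 mm2. The anti-PD-1 group (libraries 4, 5 and 6) received 200 µg of the antibody J43, which blocks the checkpoint receptor PD-1, by intraperitoneal injection 2 times a week, and the untreated group (libraries 1, 2 and 3) received none. The strain, the tumor line and the GFP sort are shared by both groups. The labels do not say that the libraries came from separate mice, and the p-values therefore reflect library-to-library spread, part of which may be technical.

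Library totals ran from 4766533 to 5219249 counts in the anti-PD-1 group and from 5470816 to 6686774 counts in the untreated group, so every untreated library was deeper. In a multidimensional scaling, untreated library 1 stood apart from the other 5 on dimension 1 (35.7% of the variance). On dimension 2 (21.1%), anti-PD-1 library 5 stood apart at 1.62, with the next highest library at 0.15 and untreated library 2 lowest at -1.14. The sort was checked against marker genes, and all levels are CPM, counts divided by library size after scaling with the trimmed mean of M-values (TMM). Foxp3 averaged 522 ± 53.5 CPM in the anti-PD-1 libraries and 450.0 ± 11.6 CPM in the untreated libraries (SD, n = 3 each). The summed level of the CD8 T cell markers Cd8a, Cd8b1 and Gzmk was 22.3 to 54.6 CPM in the anti-PD-1 libraries and 11.8 to 33.6 CPM in the untreated libraries, and anti-PD-1 library 5 was the highest. The 8 macrophage and monocyte markers summed to 14.6 to 29.4 CPM in the anti-PD-1 libraries and 13.0 to 28.1 CPM in the untreated libraries. Of these, C1qa was listed at 0 in all 6, while Itgam averaged 14.5 ± 7.79 CPM in anti-PD-1 and 14.5 ± 7.17 CPM in untreated libraries. The 5 B cell markers summed to 4.95 to 19.0 CPM against 3.20 to 10.8 CPM, anti-PD-1 libraries first, and the 5 neutrophil markers to at most 0.41 CPM against at most 1.97 CPM. The 4 NK cell markers summed to 2.68 to 7.66 CPM in the anti-PD-1 libraries and 7.68 to 9.11 CPM in the untreated libraries. The 5 dendritic cell markers summed to 8.65 to 15.7 CPM and 1.97 to 16.2 CPM in the same order. The 16.2 CPM, in untreated library 1, was all Zbtb46. Siglech had 4.36, 5.38 and 1.65 CPM in the anti-PD-1 libraries and Xcr1 had 0, 1.03 and 1.03 CPM, both with 0 in every untreated library. Flt3 had 2.09 CPM in anti-PD-1 library 4 and 0.34 CPM in untreated library 3, and Clec9a was at 0 in all 6. The 11 tumor and stromal markers summed to 1136 to 1757 CPM in the anti-PD-1 libraries and 1448 to 1848 CPM in the untreated libraries. Most of that sum was Vim, which T cells also express. Pecam1 averaged 98.7 ± 21.3 CPM in anti-PD-1 and 70.5 ± 5.20 CPM in untreated libraries, with no overlap (edgeR adjusted p = 0.551). Fn1 averaged 38.6 ± 6.77 CPM in anti-PD-1 and 33.2 ± 11.5 CPM in untreated libraries, and Epcam 16.0 ± 4.41 CPM in anti-PD-1 and 14.1 ± 2.22 CPM in untreated libraries. Krt8 was listed at 0 in all 6. Krt18 had 0, 0 and 2.27 CPM in the anti-PD-1 libraries, against 0.80, 3.57 and 5.23 CPM in the untreated libraries (edgeR adjusted p = 0.669). The part of such cells in the levels below was not tested.

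PRC2 places methyl groups on lysine 27 of histone H3, a mark of silenced genes. Ezh2 and Ezh1 are its alternative catalytic subunits, Eed binds the finished mark and stimulates the enzyme, and Suz12 holds the complex together. DNA methylation is written de novo by Dnmt3a and copied to the new strand after replication by Dnmt1, which Uhrf1 guides to hemimethylated sites. Tet2 and Tet3 oxidize methylcytosine, which starts its removal. In Tregs, EZH2 is known to help keep the activated suppressive state, and removal of methylation at the enhancers of Foxp3, to which TET enzymes contribute, is known to make its expression stable.

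Ezh2, Dnmt1 and Uhrf1 are known to be expressed with cell division, and the starts of these 3 genes carry letters that the others lack. The sequences are shown because the levels of these same genes are set against cycling below. Promoter windows from 250 bases before to 50 bases after each RefSeq start (build GRCm38.p6) were searched on both strands for TTTGGCGC and TTTCGCGC, the forms known as the consensus for E2F factors. These forms differ at 1 letter, and their matches did not overlap each other. All 9 genes had a window, 14 windows in all. A match was found in 3 of the 9 genes, against 0.929% of all 27025 genes with a window, and in 3 of the 14 windows, against 0.814% of all 32817. The genes were not drawn at random from these, and a match is a string of letters, not a shown binding site. Both forms hold the letters CG, and the shares were matched neither for CG content nor for the number of windows of a gene. Of the 8 genes with a window at the start that the count table gives, only Ezh2 had a match in that window. The window of Ezh1 was at another RefSeq start. The stretches around the 4 matches read 5′ to 3′ on the strand of the gene, with the match in capitals:
Ezh2, chr6:47595010-47595037, minus strand, match from position 3 relative to the start: ggttgctgcgTTTGGCGCtcggtccggt
Dnmt1, chr9:20952825-20952852, minus strand, match from position -219 relative to the start at 20952623: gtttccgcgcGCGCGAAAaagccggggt
Dnmt1, chr9:20952574-20952601, minus strand, match from position 33 relative to that start: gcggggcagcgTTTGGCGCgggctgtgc
Uhrf1, chr17:56304082-56304181, plus strand, match from position -185 relative to the start at 56304313: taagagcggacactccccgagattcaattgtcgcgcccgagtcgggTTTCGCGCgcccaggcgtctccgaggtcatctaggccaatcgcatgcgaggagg
In the first Dnmt1 stretch the capitals are TTTCGCGC read on the opposite strand. The Dnmt1 and Uhrf1 matches lie at RefSeq starts inside the interval that the count table gives for each gene, not at the table's own start. The windows differed in their CpG content, the dinucleotide that these enzymes methylate. Tet2 held 57 CpG in its 300 bases, the highest number among the 14 windows, against a median of 7 over all windows. The window at the table's own start of Dnmt1 held 2, and the window with the matches held 33.

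The 9 genes were each detected in every library, at 35 to 2000 counts, and all 9 passed the filter on low counts. None differed between anti-PD-1 and untreated Tregs after adjustment. The quasi-likelihood test of edgeR, adjusted by the Benjamini-Hochberg method over 10352 genes, called 3 genes in the whole table (0.0290% of those tested) and none of the 9, whose adjusted p ran from 0.597 to 0.863. Of the 9, 7 had a log2 fold change below 0 (lower in anti-PD-1), against 49.9% of all tested genes, and Tet2 and Tet3 were above 0. The median over the 9 was -0.24, against 0.0016 over all tested genes. Ezh1 alone had an unadjusted p under 0.05, which 8.30% of all tested genes had (4.07% lower and 4.23% higher in anti-PD-1). In bulk RNA such as this, a lower level cannot tell fewer cells with a transcript from less of it per cell.

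**Figure D1:**
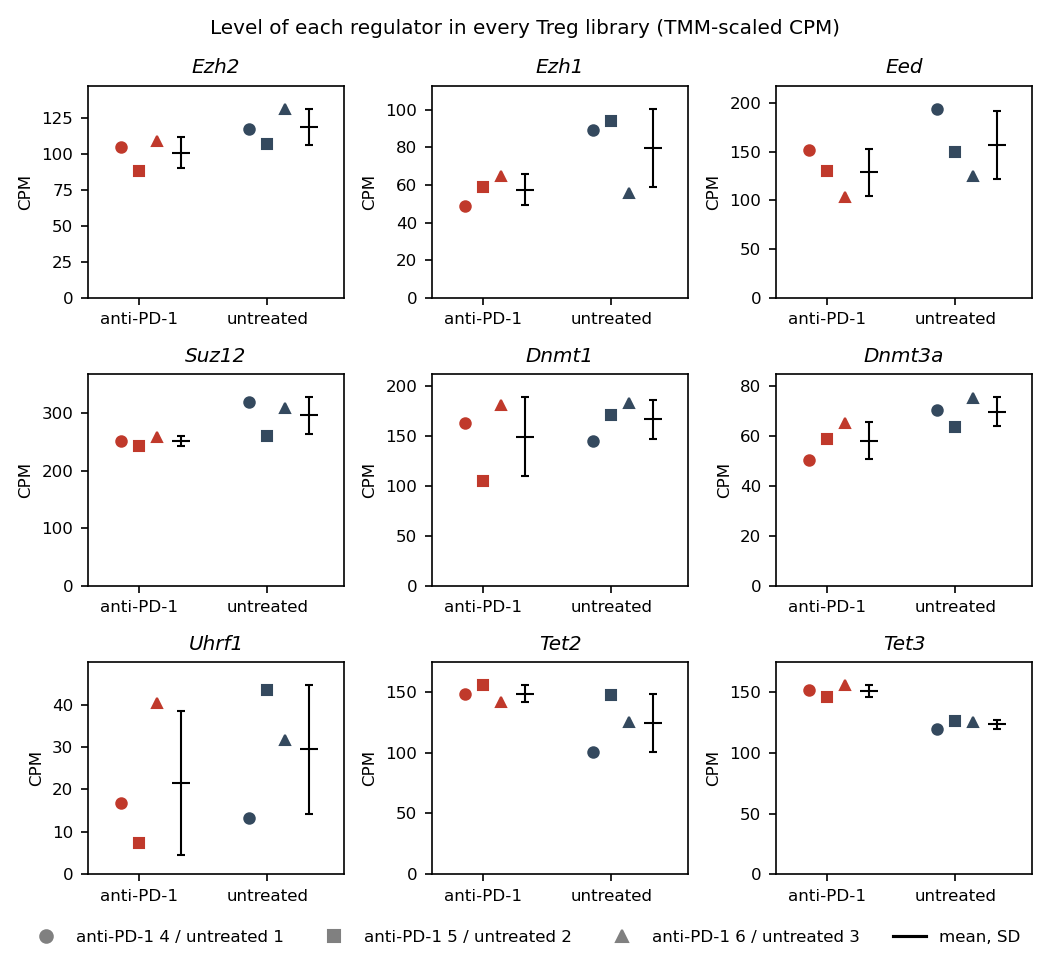
Level of each of the 9 regulators in CPM (vertical axes, each from 0) in the 3 anti-PD-1 libraries (red) and the 3 untreated libraries (dark blue), with the mean and SD beside each group; the shapes tell libraries of a group apart and pair none of them. The groups are separate for Tet3, higher in anti-PD-1, and by a narrow gap for Suz12, lower in anti-PD-1, and overlap for the other 7 genes.

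Of the PRC2 subunits, Ezh2 (chr6:47530274-47595030, minus strand, mm10) had 105, 88.6 and 109 CPM with anti-PD-1 (libraries 4, 5 and 6), against 118, 107 and 132 CPM in untreated libraries 1, 2 and 3. Anti-PD-1 library 5 was the lowest of all, untreated library 3 was the highest, and untreated library 2 lay inside the anti-PD-1 range. The fold of anti-PD-1 over untreated was 0.85, with a 95% interval of 0.656 to 1.10, and the log2 fold change was -0.23 ± 0.18 (SE; edgeR adjusted p = 0.767). A reduction by more than 0.61 on the log2 scale thus lay outside the interval. The value was -0.15 without anti-PD-1 library 5.

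Ezh1 (chr11:101191115-101226450, minus strand), the other catalytic subunit, which is known from cells that do not divide, had 48.7, 59.0 and 64.9 CPM in the anti-PD-1 libraries, against 89.3, 94.2 and 55.8 CPM in the untreated libraries. Untreated libraries 1 and 2 stood above all others, while untreated library 3 lay within the anti-PD-1 range. Its log2 fold change of -0.47 ± 0.23 was the farthest from 0 of the 9 (edgeR, unadjusted p = 0.0494, adjusted p = 0.597). The 95% interval ran from -0.95 to -0.0014, the only one of the 9 that did not hold 0, and it is not adjusted for the number of genes. The unadjusted p stayed under 0.05 in 5 of the 14 alternative settings. Without untreated library 3 the log2 fold change was -0.68 (edgeR adjusted p = 0.41, the lowest of the 14), without untreated library 2 it was -0.34 (adjusted p = 0.693), without anti-PD-1 library 4 it was -0.36 (adjusted p = 0.854) and by limma-voom -0.35 (adjusted p = 0.74).

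Eed (chr7:89954654-89980976, minus strand) had 152, 131 and 104 CPM in the anti-PD-1 libraries, against 194, 150.1 and 125 CPM in the untreated libraries. The groups overlapped, and the spread within each group was similar to the distance between their means, which were 129 ± 24.0 CPM with anti-PD-1 and 156 ± 35.0 CPM without it (SD, n = 3 each). The log2 fold change was -0.28 ± 0.19 (SE; edgeR adjusted p = 0.738). It was -0.095 without untreated library 1, which stood apart in the scaling, and -0.15 when anti-PD-1 library 6 was left out. Leaving out anti-PD-1 library 4 or untreated library 3 gave -0.42 each.

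Suz12 (chr11:79993106-80034123, plus strand) had 252.5, 242 and 259 CPM in the anti-PD-1 libraries, against 320.2, 259.8 and 309 CPM in the untreated libraries. All 3 anti-PD-1 values lay under all 3 untreated values, but the highest anti-PD-1 library, at 259.4 CPM, and the lowest untreated library were nearly level. Of all tested genes, 6.44% were separated with anti-PD-1 lower. The log2 fold change of Suz12 was -0.24 ± 0.15 (SE; edgeR adjusted p = 0.71), and its 95% interval ran from -0.55 to 0.07. Eed, Suz12 and Ezh2 thus had folds of 0.823, 0.848 and 0.85, none past the test.

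In the DNA methylation machinery, Dnmt1 (chr9:20907206-20959888, minus strand) had 163, 105 and 181 CPM in the anti-PD-1 libraries, against 145, 171 and 183 CPM in the untreated libraries. One library, anti-PD-1 5, stood below the other 5, which ran from 145 to 183 CPM. The log2 fold change was -0.15 ± 0.19 (SE; edgeR adjusted p = 0.863), and without anti-PD-1 library 5 it was 0.045 (edgeR adjusted p = 0.99, range over all alternatives 0.781 to 0.99), so its sign rested on that library.

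Uhrf1 (chr17:56303337-56323486, plus strand) had the widest spread of the 9 relative to its level. It had 16.9, 7.24 and 40.4 CPM in the anti-PD-1 libraries, against 13.3, 43.4 and 31.5 CPM in the untreated libraries. Each group held libraries near 40 CPM or above 30 CPM and at least 1 library under 17 CPM. Its log2 fold change of -0.44 ± 0.49 had a 95% interval from -1.47 to 0.59 (SE; edgeR adjusted p = 0.848). Leaving out anti-PD-1 library 6 gave -1.24, and leaving out anti-PD-1 library 5 gave -0.04.

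Dnmt3a (chr12:3806980-3914443, plus strand), the de novo methyltransferase, had 50.2, 58.8 and 65.1 CPM in the anti-PD-1 libraries, against 70.3, 63.4 and 75.2 CPM in the untreated libraries. The groups overlapped by 1 pair of libraries, anti-PD-1 6 above untreated 2. Dnmt3a had a log2 fold change of -0.27 ± 0.21 (SE; edgeR adjusted p = 0.773), and of -0.17 without anti-PD-1 library 4.

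The TET enzymes were the only 2 of the 9 with higher means in the anti-PD-1 libraries. Tet2 (chr3:133463677-133544390, minus strand) had 149, 156 and 142 CPM in the anti-PD-1 libraries, against 100.5, 148 and 126 CPM in the untreated libraries. Untreated library 1 was far below the rest, and untreated library 2 lay within the anti-PD-1 range. Its log2 fold change was 0.26 ± 0.18 (SE; edgeR adjusted p = 0.739), with 0.12 when untreated library 1 was left out and 0.40 when untreated library 2 was.

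Tet3 (chr6:83362374-83441678, minus strand) had 152, 147 and 156 CPM in the anti-PD-1 libraries, against 119.6, 126.2 and 126.0 CPM in the untreated libraries. It was the tightest of the 9 within groups relative to its level, with means of 151 ± 4.73 CPM in anti-PD-1 and 124 ± 3.74 CPM in untreated libraries (SD, n = 3 each), and the groups did not overlap. Of all tested genes, 7.18% were separated in this direction, and 13.6% in either. The fold was 1.22, with a 95% interval of 0.965 to 1.55, and the log2 fold change was 0.29 ± 0.16 (SE; edgeR unadjusted p = 0.0925, adjusted p = 0.674). Under the 14 alternatives its log2 fold change stayed between 0.26 and 0.32, the narrowest range of the 9, and no adjusted p was below 0.603.

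**Figure D2:**
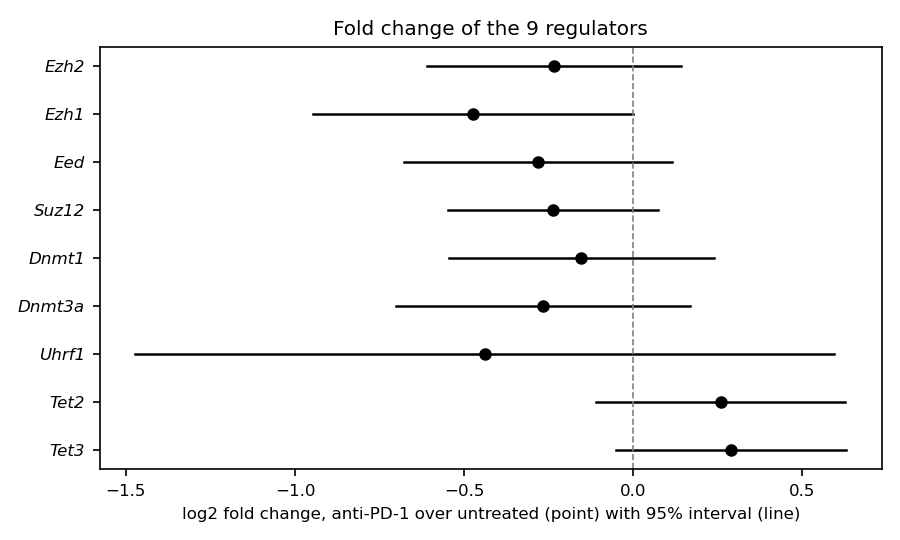
Log2 fold change of each regulator, anti-PD-1 over untreated (horizontal axis), with its 95% interval from the edgeR fit. The intervals of 8 genes hold 0 and that of Ezh1 ends at -0.0014; Uhrf1 has the widest, from -1.47 to 0.59.

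Levels of different genes were compared per length, as CPM per kilobase of the table's gene length, since longer transcripts collect more counts. Over the 6 libraries, Eed had a mean of 69.2 ± 15 and Suz12 of 62.6 ± 7.39 CPM per kilobase (SD, n = 6), and Eed was above Suz12 in 4 of 6 libraries. Ezh2 followed with 41.2 ± 5.37 and Dnmt1 with 25.1 ± 4.69 CPM per kilobase. Each of these last 2 genes lay under the whole range of the gene before it. Of the lower genes, Ezh1 averaged 16.4, Tet2 14.9, Tet3 12.6, Uhrf1 6.97 and Dnmt3a 6.42 CPM per kilobase, and the ranges of neighbors in that order overlapped, while Dnmt3a lay under Ezh1, Tet2 and Tet3 in every library. The structural subunits Eed and Suz12 were thus measured above the catalytic ones, and Dnmt1 was above Dnmt3a in all 6 libraries.

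The catalytic subunits were also set against each other. The ratio of Ezh2 to Ezh1, per length, was 3.4, 2.36 and 2.65 in the anti-PD-1 libraries, against 2.07, 1.78 and 3.71 in the untreated libraries. Ezh2 was above Ezh1 in every library, and the groups overlapped through untreated library 3. The ratio of the summed per-length level of Tet2 and Tet3 to that of Dnmt1 and Dnmt3a was 0.974, 1.35 and 0.845 in the anti-PD-1 libraries, against 0.729, 0.824 and 0.689 in the untreated libraries. This ratio, formed after the values were seen and not tested, lay above every untreated value in each anti-PD-1 library, with the nearest pair at 0.845 and 0.824.

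**Figure D3:**
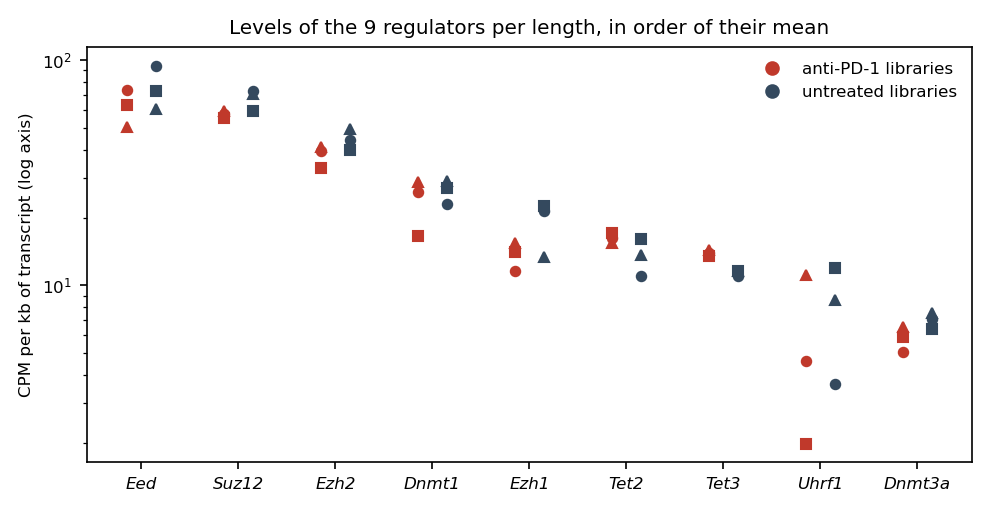
Level of each regulator per length (CPM per kilobase, log axis) in the 6 libraries, anti-PD-1 in red and untreated in dark blue, ordered by the mean over all 6. Eed and Suz12 lead at 69.2 and 62.6, and Uhrf1 and Dnmt3a come last at 6.97 and 6.42.

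The 9 genes were then set beside the level of cycling in each library, since copying of DNA methylation and of the PRC2 mark goes with DNA replication. The 32 genes of an S phase list (replication and nucleotide supply) summed to 1069, 1029 and 1540 CPM in the anti-PD-1 libraries, against 1373, 1469 and 1617 CPM in the untreated libraries, a log2 ratio of -0.29 (two-sided exact permutation test, p = 0.3). The 30 genes of a G2 and mitosis list summed to 1355, 973 and 1620 CPM in the anti-PD-1 libraries, against 1647, 1939 and 2485 CPM in the untreated libraries, a log2 ratio of -0.62. All 3 anti-PD-1 values of this second list were below all untreated ones, and the exact p of 0.1 is the smallest that 20 regroupings can give, but the nearest pair stood at 1620 and 1647 CPM. With libraries scaled by their totals only, the exact permutation p was 0.2 (log2 ratio -0.60). Of its 30 genes, 27 had a log2 fold change below 0, with a median of -0.60. An unadjusted p under 0.05 was found for 12 of them, against 4.07% of all tested genes in that direction, and none passed the adjusted test. Both cycling lists were chosen with earlier results of these data known, so their sums and counts are descriptions. Mki67, the proliferation marker, averaged 362 ± 93.9 CPM in anti-PD-1 and 639 ± 195 CPM in untreated libraries (log2 fold change -0.82; edgeR adjusted p = 0.366). The kinetochore gene Ndc80 averaged 9.82 ± 2.97 CPM in anti-PD-1 and 28.5 ± 13.2 CPM in untreated libraries (log2 fold change -1.56; edgeR adjusted p = 0.29). In the S phase list, 27 of 31 tested genes were below 0, 3 of them with an unadjusted p under 0.05, and the median was -0.33. Without anti-PD-1 library 5 the S phase median was -0.19 and the log2 ratio of the sums -0.19, without anti-PD-1 library 6 these were -0.56 and -0.50, and without untreated library 3 the median was -0.21. The G2 and mitosis median was -0.37 without untreated library 3. The 3 S phase genes were Rrm1 and Rrm2, the subunits of ribonucleotide reductase, and Pola1 of DNA polymerase alpha, with log2 fold changes of -0.59, -0.70 and -0.58 (edgeR adjusted p of 0.448, 0.521 and 0.481).

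Across the 6 libraries, Uhrf1 and Dnmt1 had the highest Pearson r of the 9 with the S phase list, whereas by Spearman rho Dnmt1 was followed by Ezh2 and Dnmt3a, with Uhrf1 after them. Uhrf1 was at its lowest in anti-PD-1 library 5 and under 17 CPM in anti-PD-1 library 4 and untreated library 1, the 3 libraries with the lowest S phase sums. Uhrf1 as log2 CPM had a Pearson r of 0.94 with the mean log2 CPM of the 31 S phase genes (exact permutation p = 0.0167, 0.075 after Benjamini-Hochberg adjustment over the 9 relations) and a Spearman rho of 0.71 (exact permutation p = 0.136, adjusted 0.306). For Dnmt1, Pearson r was 0.89 (exact permutation p = 0.00972, adjusted 0.075) and rho 0.94 (exact permutation p = 0.0167, adjusted 0.15). Neither relation passed 0.05 after adjustment. Of the other tested genes outside the S phase list, 0.378% had an r as high as that of Uhrf1 and 1.23% one as high as that of Dnmt1. Without the 2 libraries farthest from the median of the list, anti-PD-1 5 and untreated 3, r was 0.92 for Uhrf1 and 0.76 for Dnmt1. Taken as deviations from the mean of each group, r was 0.94 for Uhrf1 and 0.88 for Dnmt1, while it was 0.93 for Tet3, -0.80 for Eed and 0.65 for Ezh2, so a value of this size within the groups was not particular to Uhrf1 and Dnmt1.

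Ezh2 had an r of 0.73 with the S phase list (exact permutation p = 0.0861, adjusted 0.258) and a rho of 0.83 (exact permutation p = 0.0583, adjusted 0.262). Without the same 2 libraries, the lowest and the highest on the list, its r was -0.15. The r of 0.73 was thus not kept without them, though the few libraries left span a narrower range of the list. Dnmt3a had an r of 0.61 and a rho of 0.77, Suz12 of 0.38 and Ezh1 of 0.22, while Tet2, Tet3 and Eed had r of -0.17, -0.24 and -0.39. The G2 and mitosis list shares no gene with the S phase list, but it is not an independent readout of cycling in the same libraries. With it, r was 0.86 for Ezh2, 0.86 for Dnmt1 and 0.85 for Uhrf1 (exact permutation p of 0.0333, 0.0208 and 0.0306, each 0.1 after adjustment over the 9 relations). Without the same libraries these were 0.0081, 0.53 and 0.85. The 6 points of each relation share library depth and scaling with the list itself, and the part of cycling in the differences between treatments was not tested.

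**Figure D4:**
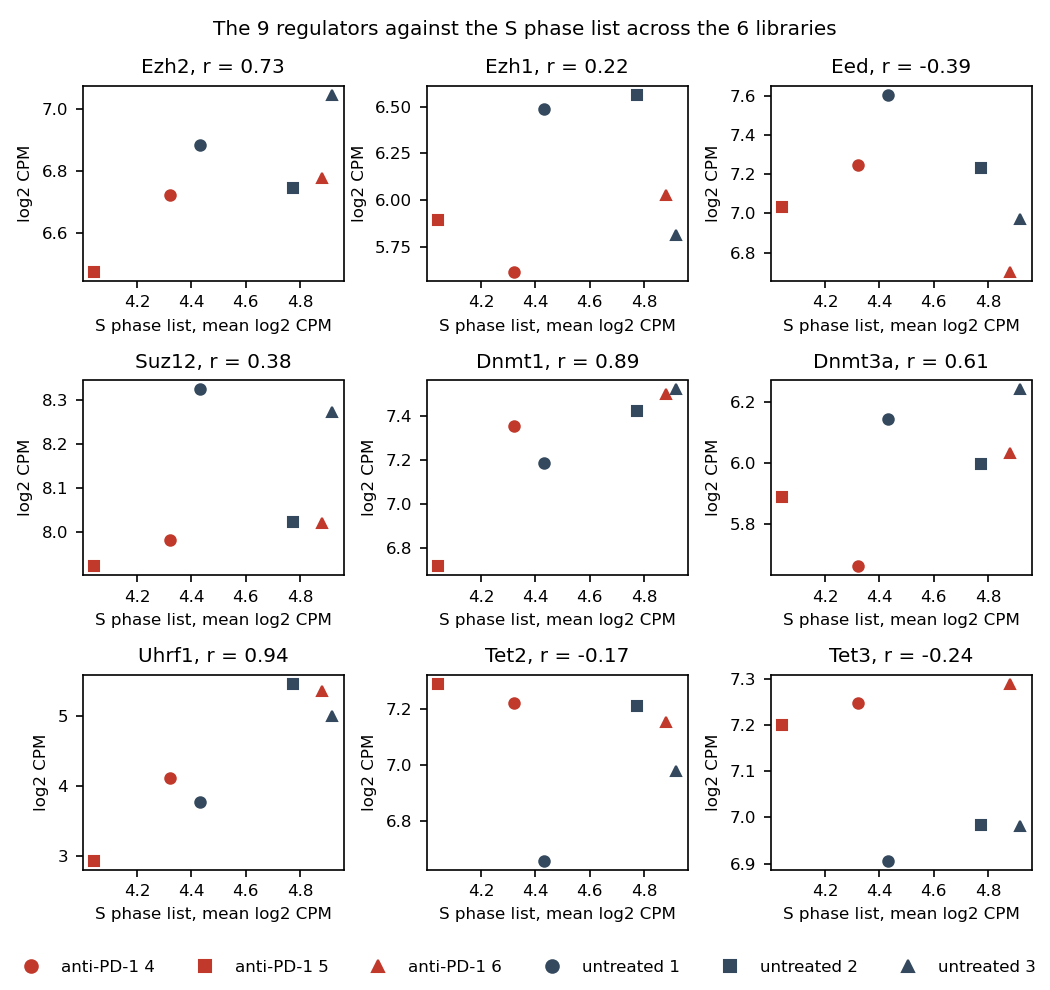
Log2 CPM of each regulator (vertical axes) against the mean log2 CPM of the 31 S phase genes (horizontal axes) in the 6 libraries, anti-PD-1 in red and untreated in dark blue, with Pearson r above each panel. Uhrf1 (0.94) and Dnmt1 (0.89) lie closest to a rising line, and anti-PD-1 library 5 is the lowest point for both.

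Among the 9 genes themselves, Dnmt1 and Uhrf1 had an r of 0.91 across the 6 libraries, Ezh2 and Suz12 of 0.85, and Suz12 and Tet2 of -0.93. These are descriptions over 6 shared libraries. The genes whose levels ran most like the 3 of smallest p were sought among the other 10351 tested genes. Nearest to Ezh1 were Nagpa (r = 0.987), Hbs1l (0.983) and Ift20 (0.982). Nearest to Tet3 were B4galnt1 (0.983), Dnajb2 (0.982) and Ccnj (0.980), and nearest to Suz12 were Ola1 (0.993), Cep128 (0.985) and Vrk1 (0.984). With 6 points and so many genes, coefficients of this size are what the search selects.

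The partners of these enzymes were read the same way, in lists that are described and not tested as sets. Of 10 accessory subunits of PRC2, 9 were tested, 7 of them below 0, with a median of -0.18. Leaving out untreated library 2 gave a median of -0.04, leaving out anti-PD-1 library 4 gave -0.10, and leaving out anti-PD-1 library 5 gave -0.27. Aebp2, a cofactor that stimulates PRC2, had 536.5, 377 and 324 CPM in the anti-PD-1 libraries, against 609.5, 458 and 520 CPM in the untreated libraries (log2 fold change -0.36 ± 0.17; edgeR unadjusted p = 0.0465, adjusted p = 0.596). Its groups overlapped, and it was the only 1 of the 9 with an unadjusted p under 0.05. The histone-binding subunits Rbbp4 and Rbbp7 had log2 fold changes of -0.21 and -0.18, and Phf1, which binds methylated H3, had 0.36.

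PRC1, the complex that ubiquitinates histone H2A and can read the PRC2 mark, showed no common direction: of 23 tested subunits 12 were above 0 and 11 below, with a median of 0.00092. Its chromodomain subunit Cbx7, which binds the PRC2 mark, had 19.5, 31.0 and 23.5 CPM in the anti-PD-1 libraries, against 9.61, 10.5 and 11.5 CPM in the untreated libraries. All 3 anti-PD-1 libraries lay well above the untreated ones, which were within 2 CPM of each other. Cbx7 had a log2 fold change of 1.22 ± 0.37 (SE; edgeR unadjusted p = 0.00311), with the smallest p among the PRC2, PRC1 and DNA methylation genes named here, and the adjusted p was 0.419. The PRC1 ring partners Pcgf5 and Pcgf2 pointed the other way, with log2 fold changes of -0.52 and -1.31 (edgeR adjusted p of 0.558 and 0.572), and neither overlapped between groups. Pcgf2 rested on few counts, at 4.10 ± 1.11 CPM in anti-PD-1 and 9.98 ± 6.08 CPM in untreated libraries.

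On the opposing side, the demethylases of H3 lysine 27 were level: Kdm6a averaged 309 ± 40.5 CPM in anti-PD-1 and 310.1 ± 28.5 CPM in untreated libraries, and Kdm6b 457 ± 51.3 CPM in anti-PD-1 and 465 ± 121 CPM in untreated libraries. Of the 9 tested demethylases and subunits of the H2A deubiquitinase, 6 were above 0, with a median of 0.09, which was 0.30 without untreated library 2 and 0.23 without untreated library 3. Foxk1, a DNA-binding partner of that deubiquitinase, had 81.5, 79.9 and 77.9 CPM in the anti-PD-1 libraries, against 48.7, 60.9 and 46.5 CPM in the untreated libraries, with no overlap (log2 fold change 0.62 ± 0.21; edgeR adjusted p = 0.448). Its subunit Asxl2 had a log2 fold change of 0.39 ± 0.17 (edgeR adjusted p = 0.551).

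Of 16 other writers and erasers of DNA methylation, 14 were tested, 9 of them below 0, and none had an unadjusted p under 0.05. Hells, a chromatin remodeler needed for DNA methylation, came nearest, at 72.7 ± 3.47 CPM in anti-PD-1 and 95.6 ± 15 CPM in untreated libraries, without overlap (log2 fold change -0.39; edgeR adjusted p = 0.616). The relatives Dnmt3b and Tet1 were low, at 6.77 ± 2.43 CPM in anti-PD-1 and 7.82 ± 3.01 CPM in untreated libraries for Dnmt3b, and at 13.4 ± 3.21 CPM and 13.5 ± 3.24 CPM in the same order for Tet1. The 10 readers of methylated CpG were split evenly, 5 above and 5 below 0. Of these, Mbd1 had a log2 fold change of -0.68 ± 0.31 and did not overlap between groups (edgeR adjusted p = 0.578).

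Among 6 genes known for regions that are hypomethylated in Tregs, 2 were above 0 and 4 below, with a median of -0.15. Foxp3 had 543, 562 and 461 CPM in the anti-PD-1 libraries, against 460.0, 437 and 453 CPM in the untreated libraries, a separation of about 1 CPM at its nearest pair (log2 fold change 0.21 ± 0.14; edgeR adjusted p = 0.731). Ctla4, the checkpoint receptor, had 1302, 1317 and 1190.3 CPM in the anti-PD-1 libraries, against 1839, 1492 and 1733 CPM in the untreated libraries (log2 fold change -0.41 ± 0.13; edgeR adjusted p = 0.448). Il2ra, the high-affinity chain of the IL-2 receptor, had a log2 fold change of -0.35 ± 0.16 (edgeR adjusted p = 0.569). DNA methylation itself was not measured.

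**Figure D5:**
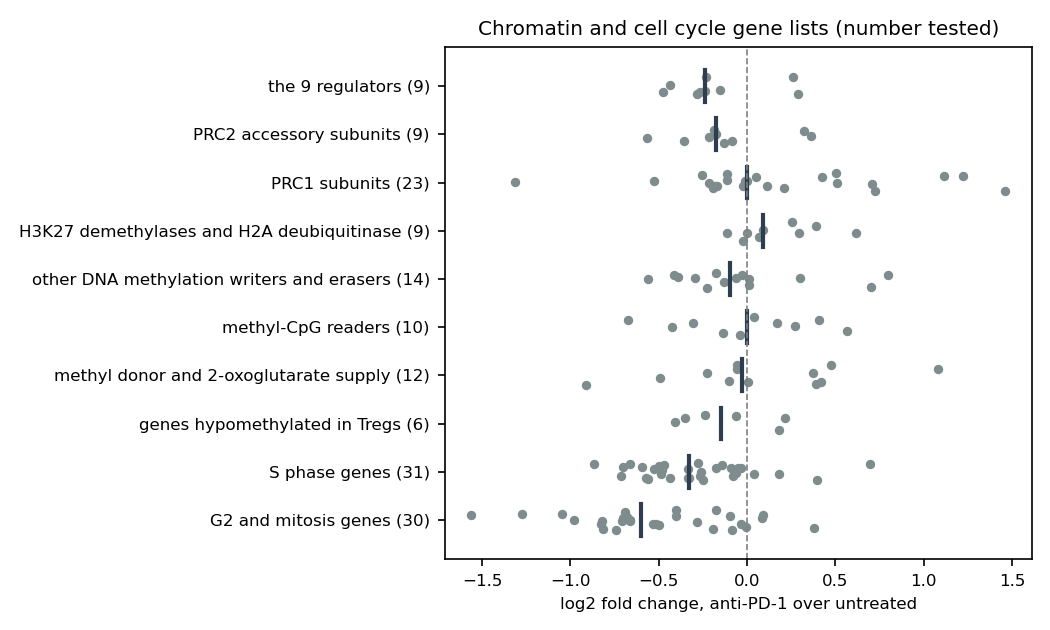
Log2 fold changes, anti-PD-1 over untreated (horizontal axis), of the tested genes in each list, 1 point a gene, with the median of each list marked. The medians are -0.24 for the 9 regulators, -0.18 for the PRC2 accessory subunits, 0.00092 for PRC1, -0.33 for S phase and -0.60 for G2 and mitosis, against 0.0016 for all tested genes.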

How the data were processed

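RNA from sorted tumor Tregs was sequenced in 3 anti-PD-1 and 3 untreated libraries made with a NuGEN Ovation SoLo kit. GFP-positive cells were sorted to above 90% purity, per the labels' protocols. The deposited values are raw counts per gene, made by the authors with featureCounts 1.5.2 on a UCSC mm10 annotation, with read pairs counted as fragments and by strand, per the file headers. The table also has 1 unnamed column with 6 values, which was not used, and 27 symbols turned into dates, none of them among the genes named. For duplicate reads, a rule is not given in the sources used here.

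From these counts, edgeR 4.0.16 (filterByExpr at its defaults, TMM, glmQLFit with robust shrinkage, two-sided glmQLFTest) tested 10352 genes, which hold 99.8% of the counts, with a single treatment term and p-values adjusted by Benjamini-Hochberg at 0.05. Log2 CPM used a prior count of 2. Intervals are for single genes. Chi-square statistics between libraries were 9.84 to 32.1 per degree of freedom over 15 pairs, so none was counted as a copy. The members and lists were chosen with earlier results of these data known. Of 245 list entries, 242 matched by symbol and 3 by synonym. Up to 4 genes per list were named by smallest p, with defining markers and, after their values were seen, Kdm6a, Kdm6b, Dnmt3b and Tet1. Some genes picked by that rule are not reported here. DESeq2 1.42.0, limma-voom (limma 3.58.1) with quality weights, other scalings and filters, and leaving out each library were alternatives. The earlier edgeR quasi-likelihood settings were added after seeing the data. The fits were tested on simulated data.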

Additional observations from a re-analysis of the deposited data

How the results depend on the processing

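None of the 9 regulators was called under any of 14 alternatives, and 125 of 126 recomputed fold changes kept their direction. The exception was Dnmt1, whose log2 fold change ran from -0.31 without anti-PD-1 library 6 to 0.045 without anti-PD-1 library 5; the cause was not tested. The number of genes called in the whole table was 3, and it was 29 with DESeq2 (0.607% of the 4775 genes with an adjusted p), 12 with limma-voom (0.116%), 5 with upper quartile scaling, 7 with library totals only and 52 with no filter. Leaving out 1 library gave 1 to 19 calls: 1 without anti-PD-1 library 5, 5 without anti-PD-1 library 6, and 19, 6 and 5 without untreated libraries 1, 2 and 3. DESeq2 gave Uhrf1 no adjusted p. With library totals only, the relation to the S phase list was an r of 0.0067 for Tet2 (adjusted p = 0.994 over the 9 relations, exact permutation), against -0.17 with TMM, and the adjusted p of Dnmt1 was 0.025 (r = 0.90). The recomputed medians of the PRC1, H3 lysine 27 demethylase and methyl donor lists reached up to 0.08, 0.30 and 0.12, against 0.00092, 0.09 and -0.03 with the settings used above. The cycling and PRC2 lists shifted too. Over the alternatives, the S phase median ran from -0.56 to -0.19, that of G2 and mitosis from -0.79 to -0.37, and that of the PRC2 accessory subunits from -0.27 to -0.04. No paired analysis was possible because the labels number the libraries 4 to 6 with anti-PD-1 and 1 to 3 without it. Among the regulators, Uhrf1 had the fewest counts, 35 in its lowest library, where counting error is widest.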

Other observations

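The supply of methyl groups and of 2-oxoglutarate, the cofactor of the TET enzymes and of the H3 demethylases, was read from 13 genes. Of these 12 were tested, 6 above and 6 below 0, with a median of -0.03. Ahcyl2, a relative of the enzyme that removes the product of methyl transfer, had 188, 153 and 199.9 CPM in the anti-PD-1 libraries, against 111, 148 and 129.7 CPM in the untreated libraries (log2 fold change 0.48 ± 0.17; edgeR adjusted p = 0.481). Its groups did not overlap.

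Genes that these systems are known to keep silent were near 0. Of 15 germline genes silenced by DNA methylation, 10 were at 0 in all 6 libraries, and only Brdt reached 10 counts in a library. Of 23 developmental genes silenced by Polycomb, 11 were at 0 in all 6, and Hoxb4, Cdkn2b and Hoxa10 reached 10 counts. Hoxb4, a homeobox gene also known from blood progenitors, had 41, 49 and 27 counts in the anti-PD-1 libraries, against 14, 21 and 21 counts in the deeper untreated libraries, and the groups did not overlap (log2 fold change 1.30 ± 0.61; edgeR unadjusted p = 0.0423, adjusted p = 0.58). Cdkn2b, a cell cycle inhibitor and a known Polycomb target, had 10, 0 and 13 counts in the anti-PD-1 libraries and 0 counts in all 3 untreated libraries. Hoxa10 had 14 counts in anti-PD-1 library 4 and 0 in every other library. These 2 genes were named only through anti-PD-1 libraries where they reached 10 counts, so no direction can be read from them. Neither passed the filter on low counts, and neither was tested. Cdkn2a, which did not reach 10 counts, had 2, 8 and 4 counts in the anti-PD-1 libraries, against 1, 0 and 5 in the untreated libraries.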
